A study of Mus musculus with 30 samples.

Results

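The 53 genes described here drive or mark cell division: the cyclins, cyclin-dependent kinases (CDKs) and their inhibitors, the Rb and E2F transcription factors, the DNA replication machinery and the mitotic machinery. They were taken by name from the 35973 genes of the blebbistatin table and the 35972 genes of the Y27632 table. All 53 were found in both tables, and all 53 passed the minimum mean of 10 normalised counts in both. By role they fall into 8 G1 cyclins and kinases, 6 CDK inhibitors, 5 Rb and E2F genes, 9 genes of origin licensing and the replicative helicase, 5 genes of the replication clamp and nucleotide supply, 6 S and M phase cyclins, kinase and transcription factors, 12 mitotic genes and 2 proliferation markers.

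The cells were primary fibroblasts of mouse tail tendon, labelled wildtype in every library, grown in 10% serum and treated in medium with 0.1% serum. Poly(A) RNA was sequenced from 3 libraries each of cells given the solvent DMSO, 10 µM blebbistatin, which blocks non-muscle myosin II, or 30 µM Y27632, which inhibits the ROCK kinases that activate myosin. Accessible chromatin was profiled by ATAC in 3 libraries of each of the same 3 treatments, and 12 further genomic libraries, 3 per group, came from cells given 10 ng/mL doxycycline, 10 µM blebbistatin, both or neither. The study asked how mechanical cues and the co-regulators Yap and Taz act on chromatin and transcription. The labels do not give the treatment time, what doxycycline switched on, or whether replicates were separate cultures or animals, so p-values measure the spread between these libraries, which may be technical.

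Cells enter the division cycle when growth factors and adhesion raise the D-type cyclins, which activate Cdk4 and Cdk6 to phosphorylate the Rb protein. Rb then releases the E2F factors, which switch on cyclin E and the genes that copy DNA, while the repressor members E2f7 and E2f8 are made under E2F control and later switch those genes off. Genes of G2 and mitosis follow, driven by B-Myb, FoxM1 and the CCAAT-binding factor NF-Y, and low serum, contact and low tension are all known to hold cultured fibroblasts in G1. In bulk RNA, fewer dividing cells and less RNA per cell cannot be told apart.

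The bases before the transcription start of 3 members are shown because they hold the motifs of these control steps and because listed chromatin sites reach the first and the second. The 250 bases before the start come from RefSeq on GRCm38.p6, each on the gene's own strand, 5′ to 3′. Capitals mark matches on either strand to E2F motifs (TTTCCCGC, TTTGGCGC or TTTCGCGC), the cell cycle homology region CHR (TTTGAA or TTCGAA) and the CCAAT box (CCAAT). E2f7 lies at chr10:110745189-110745438 on the plus strand, Cdk1 at chr10:69352913-69353162 on the minus strand and Top2a at chr11:99024190-99024439 on the minus strand.
E2f7: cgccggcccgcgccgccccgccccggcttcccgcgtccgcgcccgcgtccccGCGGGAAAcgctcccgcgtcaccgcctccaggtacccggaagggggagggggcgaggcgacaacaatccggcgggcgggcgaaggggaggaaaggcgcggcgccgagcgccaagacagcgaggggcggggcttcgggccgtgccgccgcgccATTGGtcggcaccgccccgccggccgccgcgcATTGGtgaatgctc
Cdk1: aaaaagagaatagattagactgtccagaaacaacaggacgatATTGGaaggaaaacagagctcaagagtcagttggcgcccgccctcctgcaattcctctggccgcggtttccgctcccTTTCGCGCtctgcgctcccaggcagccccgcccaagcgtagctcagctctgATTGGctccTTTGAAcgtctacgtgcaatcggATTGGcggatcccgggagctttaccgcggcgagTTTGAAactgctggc
Top2a: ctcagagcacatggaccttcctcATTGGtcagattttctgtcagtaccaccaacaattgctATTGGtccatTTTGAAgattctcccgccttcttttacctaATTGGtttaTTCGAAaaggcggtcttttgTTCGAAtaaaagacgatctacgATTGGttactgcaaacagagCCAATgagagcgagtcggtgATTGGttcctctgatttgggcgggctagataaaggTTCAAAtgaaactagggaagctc
E2f7 has 1 E2F match, GCGGGAAA at 198 bases before the start, and 2 CCAAT matches, at 46 and 14. Cdk1, the mitotic kinase, has 1 E2F match at 131 bases, 2 CHR matches at 71 and 15, and 3 CCAAT matches at 208, 80 and 48. Top2a, the topoisomerase that untangles sister chromosomes, has no E2F match but 4 CHR and 6 CCAAT matches. A match is a stretch of letters and not a measured binding site.

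Among the 42 members with a RefSeq promoter, 21.4% held an E2F match in these 250 bases, against 1.78% of the 27025 genes of the RefSeq table. The 9 members with one were Cdc6, Cdk1, Cdk2, Cdkn2a, E2f7, Mcm5, Mcm6, Mcm7 and Rbl1, so 4 of the 7 licensing and helicase genes had a match and 0 of the 10 mitotic genes. The CCAAT box was found in 64.3% of members and 37.5% of all genes, and in 9 of the 10 mitotic genes. The CHR was found in 28.6% of members, 12 genes, and 19.6% of all genes. None of the 3 motifs lay in the window of Cdt1, which had the largest rise of the 53 genes with blebbistatin. The windows of other members, among them Ccne1, Tyms and Birc5, also held none. The E2f1 window held none either, but it contains coding sequence of E2f1 itself. It is counted among the 42 and does not show the bases before that coding sequence. Whether a missing match goes with a change in RNA was not tested.

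Library depth was 23375386 to 37061737 reads in genes, and the members held between 9 reads (Ccne2) and 10338 reads (Ccnd2) in a library. All 11 tendon fibroblast markers, among them Col1a1, Scx and Tnmd, were expressed, with summed levels of 818120 to 955574 normalised counts over the 9 libraries. Most of that sum was Col1a1, Col1a2 and Col3a1, with DMSO means of 299598, 248176 and 242672. Scx had means of 67.2, 68.2 and 82.2 in DMSO, blebbistatin and Y27632. In that order Pdgfra (9331, 14002 and 14070) and Lum (5054, 6912 and 8629) were lowest in DMSO, and Col1a1 (299598, 251846 and 278392) was highest there. Of the 6 macrophage and leukocyte markers, which were all expressed, the sum was 6268 to 6925 in DMSO, 9012 to 10123 with blebbistatin and 9109.9 to 10402 with Y27632. The 5 endothelial markers summed to 3335 to 3398, 2114 to 2375 and 2989 to 3192 in that order, with Emcn under 3 counts in every DMSO and blebbistatin library. Nearly all of that sum was Tek, with means of 3274, 2123 and 2961, whereas the means of Cdh5 were 70.5, 87.0 and 88.9, and those of Kdr (15.3, 23.4 and 20.2) and Pecam1 (6.06, 8.21 and 9.55) were also lowest in DMSO. Summed levels of the 5 smooth muscle and pericyte markers were 2165 to 2403, 2458 to 2737 and 2356 to 2927. Most of that sum was Cspg4 (means 2110, 2481 and 2554), while Rgs5 (99.0, 67.9 and 82.9) and Cnn1 (55.9, 36.8 and 33.0) were highest in DMSO. The 4 cartilage markers summed to 439 to 499, 670.0 to 751 and 653 to 745. The 4 epithelial markers did not exceed a sum of 21.2, with Krt5 and Krt14 under 3. The part that the macrophage, endothelial and cartilage sums, whose ranges with each inhibitor lay outside the DMSO range, have in the results below was not tested. Levels below are normalised counts, with the 9 libraries scaled together. They are not divided by gene length and are not compared between genes. Each log2 change comes from a fit within 1 table.

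With blebbistatin, 30 of the 53 genes passed an adjusted p of 0.05 in limma and are termed called, 9 of them higher and 21 lower. Of all 14882 genes tested, 53% were called, so the 53 genes were called about as often as genes at large, while the balance of directions was 26.1% higher and 26.9% lower over all genes. The median log2 change was -0.15 over the 53 genes and 0.00 over all genes tested. The 3 DMSO and the 3 blebbistatin libraries did not overlap for 27 of the 53 genes, against 60.2% of all genes. Only 7 were called with a log2 change of 0.5 or more in size: Cdt1 and Cdkn1c rose, and E2f7, Ccne2, Rrm2, Ccnd1 and E2f8 fell. Of all genes, 19.3% were called at that size. The number of decreases fell from 21 to 14 without DMSO replicate 1 and likewise without blebbistatin replicate 1.

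With Y27632, 15 of the 53 were called, 4 higher and 11 lower, where 35.9% of the 14833 genes tested were called, 18.1% higher and 17.8% lower. The median log2 change was 0.01 and that over all genes 0.004. The groups did not overlap for 20 of the 53 genes and for 48.1% of all genes. Only Ccnd2, E2f7 and Cdt1 were called with a change of at least 0.5, and 8.32% of all genes were. Without DMSO replicate 1 the count of increases was 7, and without Y27632 replicate 3 it was 2. By the adjusted p in the authors' deposited table, 22 of the 53 pass the same threshold with blebbistatin and 10 do with Y27632, and all of these were also called here.

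Both comparisons use the same 3 DMSO libraries, so their calls are not independent. Side by side, 12 genes were called in the same direction with both inhibitors: Ccnd1, Ccnd2, Cdkn2c, Rb1, E2f7, Rrm1, Rrm2, Foxm1 and Cdc20 lower, and Cdk4, Cdkn1a and Cdt1 higher. A further 18 were called with blebbistatin and not with Y27632, 3 with Y27632 alone (Cdkn2b, Mcm4 and Tyms), 20 with neither and 0 in opposite directions. The same counts were not made over all genes tested. It was therefore not tested whether shared directions, or the lack of opposite ones, are particular to these genes. Whether the inhibitors differ is tested gene by gene in a direct comparison further on.

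**Figure D1:**
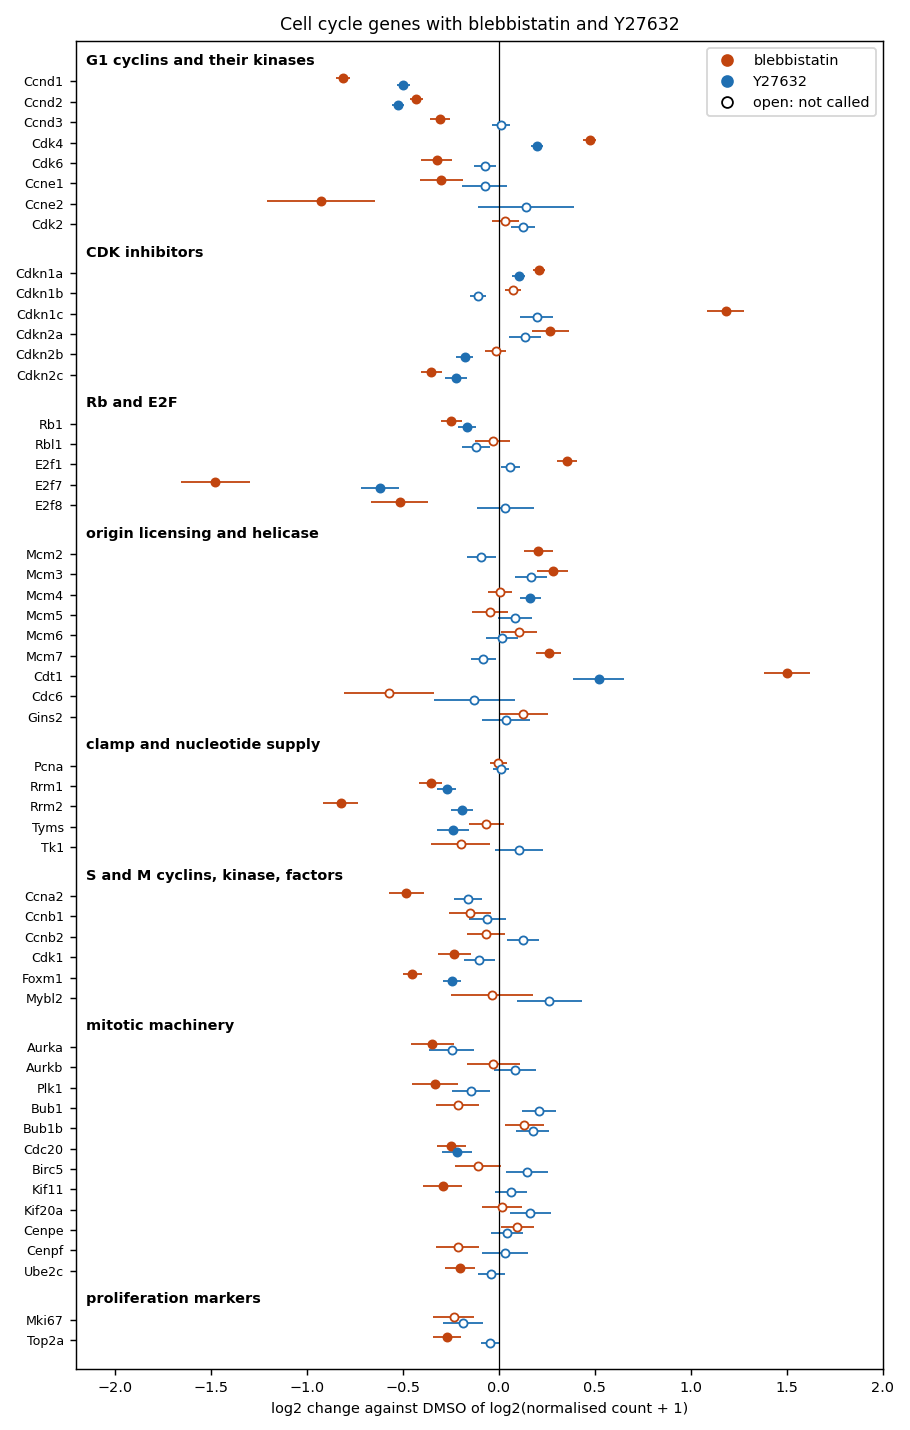
Log2 change against DMSO of the 53 genes (horizontal axis, on the scale of log2(normalised count + 1)), grouped by role, for blebbistatin (orange) and Y27632 (blue). Points are limma estimates from 3 against 3 libraries, bars are standard errors, and open points were not called. The largest changes with blebbistatin are those of Cdt1 (1.50), E2f7 (-1.48) and Cdkn1c (1.18).

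The cyclins and kinases of G1 were mostly lower with blebbistatin: 6 of 8 fell and 1, Cdk4, rose, with a median log2 change of -0.32. With Y27632, 2 fell and Cdk4 rose, with a median of -0.03. Ccnd1 encodes cyclin D1, the D-type cyclin most tightly tied to growth factor and adhesion signals. Its level was 5799, 5803 and 6050.3 in DMSO, 3450.2, 3391 and 3228 with blebbistatin and 4055, 4325 and 4122 with Y27632. The 3 groups did not overlap, and blebbistatin was lowest. The log2 change was -0.81 (SE 0.0359, limma adjusted p 2.23e-09) with blebbistatin and -0.50 (SE 0.0344, limma adjusted p 2.35e-07) with Y27632. Ccnd2, cyclin D2, stood at 10806, 11235 and 11135 in DMSO, 8376, 8377 and 7931 with blebbistatin and 7470.5, 7703 and 7898 with Y27632. Every treated library was below every DMSO library, and here Y27632 was the lower of the pair. The changes were -0.43 (SE 0.033, limma adjusted p 3.36e-07) and -0.52 (SE 0.0314, limma adjusted p 6.11e-08). Ccnd3, the third D-type cyclin, was at 1355, 1344 and 1259.7 in DMSO, 1014, 1137 and 1054 with blebbistatin and 1269.8, 1329 and 1391 with Y27632. Only the blebbistatin libraries lay apart, with a change of -0.31 (SE 0.0528, limma adjusted p 0.000357), while the Y27632 estimate was 0.012 (adjusted p 0.862).

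Cdk4, the kinase that the D-type cyclins activate, moved the other way from its partners. It stood at 6505, 6174 and 6394 in DMSO, 8740.5, 8719.9 and 9039 with blebbistatin and 7150.0, 7305 and 7439 with Y27632. From low to high the order was DMSO, Y27632, blebbistatin, without overlap. The rise was 0.47 (SE 0.0318, limma adjusted p 9.68e-08) with blebbistatin and 0.20 (SE 0.0316, limma adjusted p 0.0003) with Y27632. Cdk6, the sister kinase of Cdk4, was lower with blebbistatin at -0.32 (SE 0.0805, limma adjusted p 0.00478), and its Y27632 estimate was -0.072 (adjusted p 0.38). The 2 E-type cyclins activate Cdk2 at the start of S phase. Ccne2 was scarce, at 24.0, 19.7 and 18.2 in DMSO, 9.85, 10.4 and 10.7 with blebbistatin and 26.6, 18.8 and 23.3 with Y27632. The blebbistatin libraries were all below the others, and DMSO and Y27632 overlapped. Its log2 change with blebbistatin was -0.93 (SE 0.28, limma adjusted p 0.0146), a call lost without DMSO replicate 1 (-0.82, adjusted p 0.0589) and with DESeq2 (adjusted p 0.0743). Adjusted p-values for Ccne2 over the alternatives were 0.00614 to 0.0743. Ccne2 shares 5622 bases of its span with Ints8, and how the counting treated shared bases is not given in the sources used here. Ccne1 was at 140.1, 164 and 166 in DMSO and 131, 118 and 132 with blebbistatin. That difference, -0.30 (SE 0.113, limma adjusted p 0.042), lost its call without DMSO replicate 2 (-0.26) or 3 (-0.26) and without blebbistatin replicate 1 (-0.32), 2 (-0.25) or 3 (-0.33), and also with no filter on low values and with DESeq2. Cdk2 itself was not called with either inhibitor, at 0.035 (adjusted p 0.7) with blebbistatin and 0.13 (adjusted p 0.138) with Y27632. It shares 7114 bases of its span with Pmel.

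**Figure D2:**
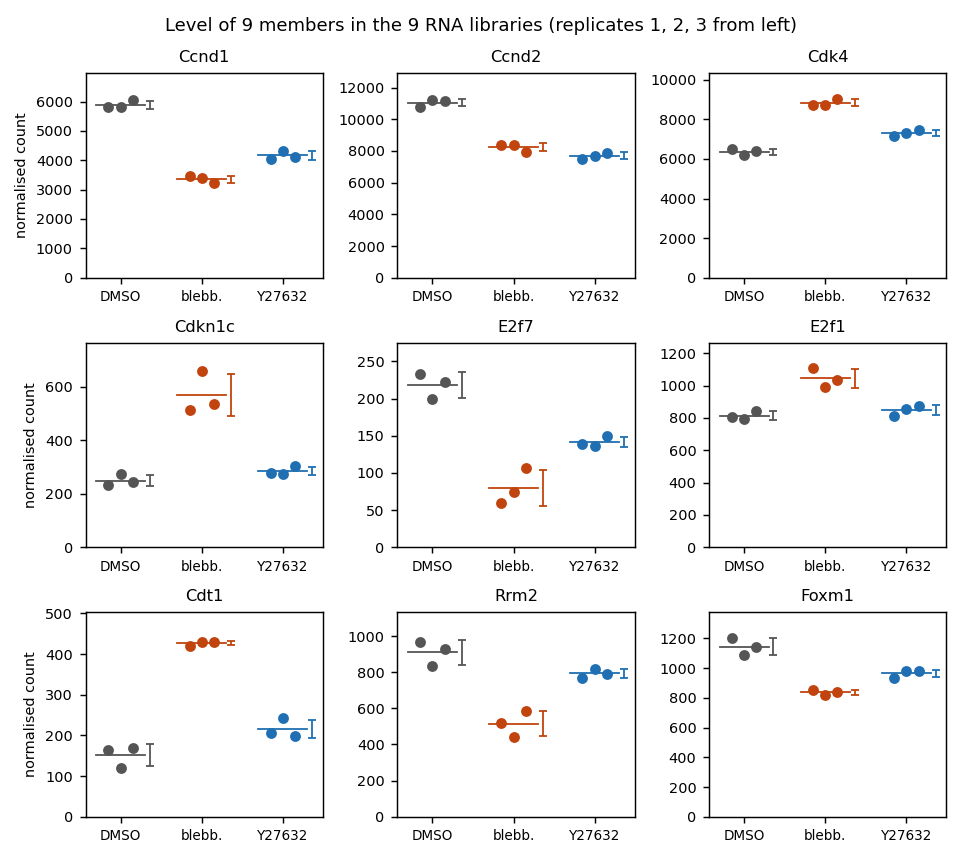
Normalised count (vertical axis, from 0) of 9 genes in the 9 RNA libraries, 3 each of DMSO (grey), blebbistatin (orange) and Y27632 (blue). Points are libraries, horizontal lines are group means and bars are 1 SD to either side (n = 3). Ccnd1, Ccnd2, Cdk4, Cdkn1c, E2f7, Cdt1, Rrm2 and Foxm1 show 3 groups that do not overlap, whereas E2f1 in Y27632 libraries overlaps DMSO. The nearest groups of Ccnd2 and of Cdkn1c lie close together.

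Of the 6 CDK inhibitors, 3 rose and 1 fell with blebbistatin, and 1 rose and 2 fell with Y27632. Cdkn1c, which encodes p57, had the largest rise. It was at 233, 273 and 243 in DMSO, 516, 659 and 536 with blebbistatin and 279, 276 and 302 with Y27632. The 3 blebbistatin libraries were far above the other 6. The change was 1.18 (SE 0.0982, limma adjusted p 6.76e-07) with blebbistatin, from 249.7 ± 20.6 to 570.3 ± 77.6 normalised counts (SD, n = 3). With Y27632 it was 0.20 (SE 0.0849, limma adjusted p 0.0891), and 0.26 (adjusted p 0.0436) without DMSO replicate 2. Cdkn1a, which encodes p21, a p53 target that blocks cyclin-CDK complexes, was at 4903, 4817 and 4992 in DMSO, 5645, 5777 and 5617 with blebbistatin and 5058, 5266 and 5467 with Y27632. The groups did not overlap, in the order DMSO, Y27632, blebbistatin, but the steps were small. The rise was 0.21 (SE 0.0309, limma adjusted p 0.000103) with blebbistatin and 0.10 (SE 0.0347, limma adjusted p 0.0341) with Y27632. The Y27632 call was lost without DMSO replicate 1 (0.10) or 2 (0.09) and without Y27632 replicate 2 (0.10) or 3 (0.075), and also with no filter on low values and with DESeq2.

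The inhibitors of the INK4 family, which bind Cdk4 and Cdk6, were called in different directions. Cdkn2c, encoding p18, was at 642, 654 and 618 in DMSO, 505, 494 and 503 with blebbistatin and 544, 523 and 573 with Y27632. All 6 treated libraries were below all 3 DMSO libraries, with changes of -0.35 (SE 0.0553, limma adjusted p 0.000176) and -0.22 (SE 0.0567, limma adjusted p 0.00806). Cdkn2b, encoding p15, fell with Y27632 at -0.18 (SE 0.0445, limma adjusted p 0.00743), and its blebbistatin estimate was -0.017 (adjusted p 0.824). Its levels were 1376, 1362 and 1484 in DMSO, 1342, 1509 and 1331 with blebbistatin and 1218, 1238 and 1271 with Y27632. Cdkn2a, whose locus encodes p16 and the p53 activator Arf, rose with blebbistatin at 0.27 (SE 0.0962, limma adjusted p 0.0337). That call was lost without DMSO replicate 2 (0.28) or 3 (0.22), without blebbistatin replicate 2 (0.17) and with DESeq2. A gene count does not separate the p16 and Arf transcripts. Cdkn1b, encoding p27, was at 0.073 (adjusted p 0.176) with blebbistatin and -0.11 (adjusted p 0.055) with Y27632, neither of which was called.

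Of the 5 Rb and E2F genes, E2f7 fell most. Its levels were 233, 199.6 and 223 in DMSO, 59.1, 74.5 and 107 with blebbistatin and 139, 136 and 149.6 with Y27632. The groups did not overlap, in the order blebbistatin, Y27632, DMSO, and the blebbistatin libraries spread most, with an SD of 24.3 around a mean of 80.1. The change was -1.48 (SE 0.179, limma adjusted p 1.94e-05) with blebbistatin and -0.62 (SE 0.098, limma adjusted p 0.000316) with Y27632. E2f8, the second repressor of this pair, was at 78.4, 76.6 and 78.7 in DMSO, 53.6, 49.4 and 60.1 with blebbistatin and 75.4, 95.9 and 70.0 with Y27632. The blebbistatin libraries were below all others, while the Y27632 libraries lay on both sides of the DMSO libraries. The blebbistatin change was -0.52 (SE 0.148, limma adjusted p 0.0111), and DESeq2 gave this change an adjusted p of 0.0530. Adjusted p-values for E2f8 over the alternatives were 0.00955 to 0.053. With Y27632 the E2f8 estimate was 0.034 (adjusted p 0.88). E2f1, the activator that Rb restrains, went up with blebbistatin while both repressors went down. It was at 807, 793 and 845 in DMSO, 1109, 994 and 1033 with blebbistatin and 813, 857 and 876 with Y27632. The blebbistatin libraries were all above the rest, and DMSO and Y27632 overlapped. The change was 0.36 (SE 0.0536, limma adjusted p 0.000123) with blebbistatin and 0.06 (adjusted p 0.379) with Y27632. Rb1, the gatekeeper itself, was at 903, 949 and 912 in DMSO, 738, 766 and 830.0 with blebbistatin and 853, 809.8 and 798 with Y27632. Every treated library was below every DMSO library, with changes of -0.25 (SE 0.055, limma adjusted p 0.00232) and -0.17 (SE 0.048, limma adjusted p 0.0157). Without DMSO replicate 2 (-0.15) or Y27632 replicate 3 (-0.15) the Y27632 call of Rb1 was lost, as it was with DESeq2. Its relative Rbl1, p107, was not called with blebbistatin (-0.033, adjusted p 0.788) or with Y27632 (-0.12, adjusted p 0.221).

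Replication origins are licensed in G1 when Cdc6 and Cdt1 load the Mcm2 to Mcm7 helicase onto DNA. Of the 9 genes of this group, 4 rose with blebbistatin, Cdt1, Mcm2, Mcm3 and Mcm7, and 0 fell. With Y27632, 2 rose, Cdt1 and Mcm4, and 0 fell. The median log2 change of the group was 0.13 with blebbistatin and 0.039 with Y27632. Cdt1 was at 164, 121 and 169 in DMSO, 420.3, 429 and 429.5 with blebbistatin and 207, 242 and 198 with Y27632. The groups did not overlap, and the blebbistatin libraries lay close together. The rise was 1.50 (SE 0.117, limma adjusted p 3.91e-07) with blebbistatin, from 151 ± 26.7 to 426 ± 5.08 normalised counts (SD, n = 3), and 0.52 (SE 0.132, limma adjusted p 0.00784) with Y27632. Its partner Cdc6 was scarce, at 42.9, 41.8 and 66.6 in DMSO, 29.6, 28.6 and 41.7 with blebbistatin and 46.4, 51.1 and 38.2 with Y27632, and lower in every blebbistatin library than in every DMSO library, though by a narrow margin. It was not called with blebbistatin, at -0.57 (SE 0.235, limma adjusted p 0.0576), and was called without blebbistatin replicate 3 (-0.74) and with all 9 libraries in 1 fit (-0.57).

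The helicase genes moved little. Mcm7 was at 818, 718 and 686 in DMSO, 868, 872 and 920.1 with blebbistatin and 698, 723 and 675 with Y27632. Its blebbistatin libraries were above the DMSO libraries, at 0.26 (SE 0.0655, limma adjusted p 0.00517), and the Y27632 estimate was -0.08 (adjusted p 0.373). Mcm3 rose with blebbistatin by 0.28 (SE 0.0794, limma adjusted p 0.0102). Mcm2 changed by 0.21 (SE 0.0765, limma adjusted p 0.0392), a call lost without DMSO replicate 2 (0.20) or 3 (0.15) and without blebbistatin replicate 1 (0.23), 2 (0.22) or 3 (0.16), and lost with DESeq2. The rise of Mcm4 with Y27632, 0.16 (SE 0.0553, limma adjusted p 0.0337), was lost without DMSO replicate 1 (0.16) or 2 (0.14) and without Y27632 replicate 1 (0.13) or 3 (0.16), and with DESeq2. Mcm5, Mcm6 and Gins2, a subunit of the GINS complex that completes the active helicase, were not called with either inhibitor. In each of the 9 genes of this group, blebbistatin replicate 3 was the highest of the 3 blebbistatin libraries.

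Both subunits of ribonucleotide reductase, the enzyme that makes deoxynucleotides for DNA synthesis, were lower with both inhibitors. Rrm2, its S phase subunit, was at 967, 832 and 929 in DMSO, 521, 443 and 584 with blebbistatin and 769.7, 819 and 792 with Y27632. Blebbistatin was lowest and DMSO highest, without overlap. The log2 change was -0.82 (SE 0.0904, limma adjusted p 8.11e-06) with blebbistatin and -0.19 (SE 0.0588, limma adjusted p 0.0217) with Y27632. The Y27632 call was lost without DMSO replicate 1 (-0.15) or 3 (-0.18) and without Y27632 replicate 1 (-0.17) or 3 (-0.19), and with all 9 libraries in 1 fit. Rrm1, the large subunit, was at 2036, 1848 and 2041 in DMSO, 1461, 1481 and 1702 with blebbistatin and 1529, 1691 and 1685 with Y27632. All treated libraries were below DMSO, and the inhibitors overlapped, with changes of -0.36 (SE 0.0602, limma adjusted p 0.000316) and -0.27 (SE 0.051, limma adjusted p 0.00114). Pcna, the sliding clamp of the replication fork, held nearly the same level throughout, at 952, 942 and 957 in DMSO, 933, 966 and 952 with blebbistatin and 929.5, 974 and 968 with Y27632. Its changes were -0.0023 (SE 0.0443) and 0.011 (SE 0.0439), and it was not called. Tyms, thymidylate synthase, fell with Y27632, with a log2 change of -0.24 (SE 0.0843, limma adjusted p 0.0407), a call lost without DMSO replicate 1 (-0.21) or 3 (-0.22) and without Y27632 replicate 2 (-0.22) or 3 (-0.20), and also with no filter on low values and with DESeq2. Tk1, thymidine kinase, was not called with either inhibitor.

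Among the 6 S and M phase cyclins, their kinase and transcription factors, 3 fell with blebbistatin and 1 with Y27632. Foxm1, which activates genes of G2 and mitosis, was at 1203, 1086 and 1141 in DMSO, 855, 822 and 836 with blebbistatin and 934, 980.1 and 978 with Y27632. Here too blebbistatin was lowest and DMSO highest, without overlap, with changes of -0.45 (SE 0.0502, limma adjusted p 9.55e-06) and -0.24 (SE 0.0489, limma adjusted p 0.00178). Ccna2, cyclin A2 of S and G2 phase, was at 639, 538 and 593 in DMSO, 416, 375 and 479.9 with blebbistatin and 513, 571 and 499 with Y27632. Blebbistatin lay below the other groups, which overlapped, at -0.48 (SE 0.0913, limma adjusted p 0.000735). Cdk1 changed by -0.23 (SE 0.0855, limma adjusted p 0.0382) with blebbistatin, a call lost without DMSO replicate 1 (-0.18) or 3 (-0.18) and without blebbistatin replicate 1 (-0.20) or 2 (-0.23). The B-type cyclins Ccnb1 and Ccnb2 and the transcription factor Mybl2 (B-Myb) were not called, with blebbistatin estimates of -0.15, -0.067 and -0.034.

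Of the 12 mitotic genes, 5 fell with blebbistatin and 1, Cdc20, with Y27632, and 0 rose with either. The median log2 change of the 12 was -0.21 with blebbistatin and 0.052 with Y27632. The 5 were Aurka (Aurora A kinase, -0.35, SE 0.111, limma adjusted p 0.0198), Plk1 (Polo-like kinase, -0.33, adjusted p 0.0328), Kif11 (a spindle motor, -0.29, adjusted p 0.0276), Cdc20 (an activator of the anaphase-promoting complex, -0.25, adjusted p 0.0161) and Ube2c (its ubiquitin-conjugating enzyme, -0.20, adjusted p 0.0455). Each of these calls was lost without DMSO replicate 1, at -0.22, -0.22, -0.23, -0.16 and -0.14 in that order, and without blebbistatin replicate 1, at -0.35, -0.22, -0.30, -0.21 and -0.17. Leaving out DMSO replicate 3 also ended the calls of Plk1 (-0.33) and Kif11 (-0.29), blebbistatin replicate 2 that of Kif11 (-0.19), and DMSO replicate 2 or blebbistatin replicate 3 that of Ube2c (-0.19 and -0.19). The call of Ube2c was also lost with no filter on low values, with TMM scaling and with DESeq2. Cdc20 fell with Y27632, with a log2 change of -0.22 (SE 0.0774, limma adjusted p 0.0436), a call lost without DMSO replicate 1 (-0.13) and without Y27632 replicate 1 (-0.18) or 2 (-0.20).

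Both proliferation markers were highest, among the DMSO libraries, in replicate 1. Mki67, which encodes the Ki-67 antigen, was at 1726, 1366 and 1250.0 in DMSO, 1213, 1083 and 1381 with blebbistatin and 1103, 1431 and 1261 with Y27632. The groups overlapped. Its limma estimates, -0.24 (adjusted p 0.0825) for blebbistatin and -0.19 (adjusted p 0.19) for Y27632, were not called, and 3 omissions made it a call. Without DMSO replicate 3 the blebbistatin change was -0.33 (adjusted p 0.0187) and the Y27632 change was -0.29 (adjusted p 0.0416). Without blebbistatin replicate 3 it was -0.32 (adjusted p 0.0274). Top2a was at 1731, 1537 and 1590.0 in DMSO, 1287, 1233 and 1527 with blebbistatin and 1545, 1586 and 1564 with Y27632. Its blebbistatin libraries lay below the DMSO libraries, at -0.27 (SE 0.072, limma adjusted p 0.00737), and the Y27632 estimate was -0.046 (adjusted p 0.468).

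The mitotic genes, the S and M phase genes and the markers, 20 genes that were put together after their values were seen, varied together between replicates. DMSO replicate 1 was the highest of its group in 19 of the 20 genes, where it was the highest for 34.2% of the 11446 genes with a mean of at least 100. Blebbistatin replicate 3 was the highest in 17 of the 20, against 36.0% of those 11446 genes, and Y27632 replicate 2 in 15 of the 20, against 29.2%. The median coefficient of variation between replicates of the 20 genes was 11.4% in DMSO, 11.1% with blebbistatin and 7.20% with Y27632. Over the 11446 genes with a mean of at least 100 it was 4.02%, 4.05% and 3.79%, and counting error alone gives the 20 genes 4.77%, 4.83% and 4.27%. The 8 G1 cyclins and kinases varied by 4.10%, 4.93% and 4.20%. With blebbistatin 9 of the 20 genes fell and 0 rose, at a median log2 change of -0.21. Without DMSO replicate 1, 3 fell (Ccna2, Foxm1 and Top2a) and the median was -0.12, and without blebbistatin replicate 1 the same 3 fell. With Y27632 2 of the 20 fell and 0 rose, whereas without DMSO replicate 1 5 rose and 1 fell, and without DMSO replicate 2 0 rose and 6 fell. Why DMSO replicate 1 stands apart was not tested.

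**Figure D3:**
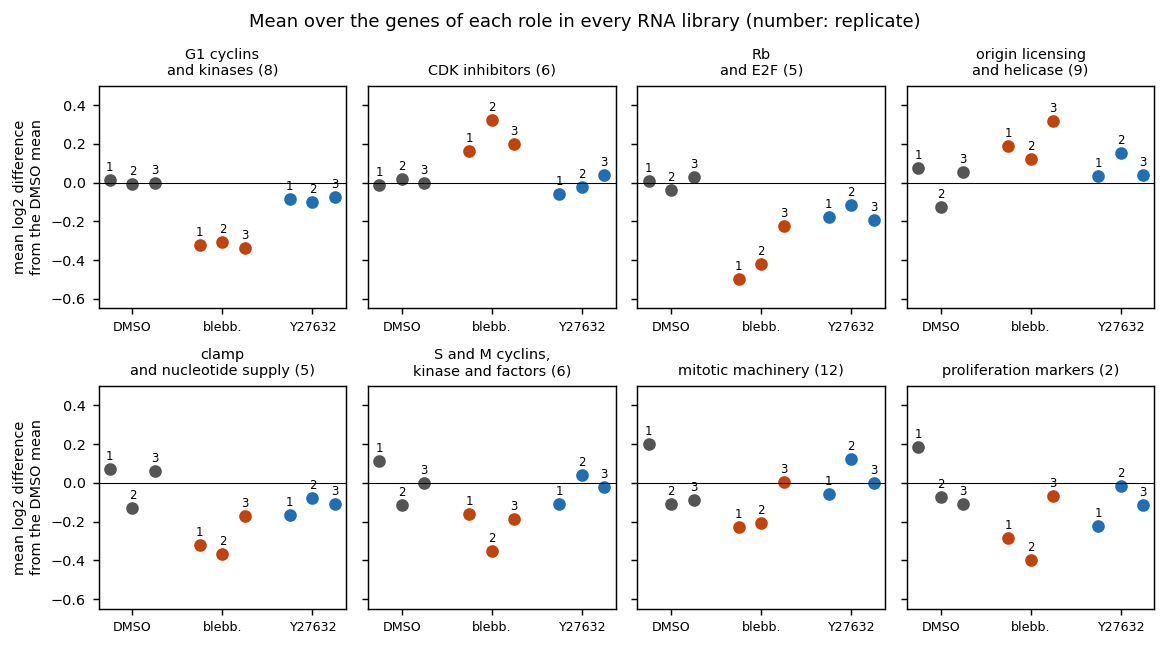
Mean log2 difference from the DMSO mean (vertical axis) over the genes of each role, with the number of genes in brackets, in each RNA library. Points are libraries, numbered by replicate. G1 cyclins and kinases lie at -0.32, -0.31 and -0.34 in the blebbistatin libraries, while mitotic genes range from -0.11 to 0.20 within DMSO alone.

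The inhibitors were then compared directly, with edgeR on reads scaled together. Doses differed (10 µM and 30 µM), and the treatment times are not given. Of the 53 genes 23 were called, 10 of them higher under blebbistatin and 13 higher under Y27632. Of all 14925 genes 53.1% were called, 26.9% higher under blebbistatin and 26.2% lower. The groups did not overlap for 28 of the 53 genes and for 60.5% of all genes, and 6 of the 53, against 16.9% of all genes, differed by at least 0.5. Cdkn1c, 1.01 (SE 0.0931, edgeR adjusted p 5.66e-07), and Cdt1, 0.99 (SE 0.103, edgeR adjusted p 1.9e-06), were higher with blebbistatin. Ccne2, -1.14 (SE 0.261, edgeR adjusted p 0.00209), E2f7, -0.80 (SE 0.161, edgeR adjusted p 0.000776), Rrm2, -0.62 (SE 0.083, edgeR adjusted p 2.42e-05), and E2f8, -0.56 (SE 0.156, edgeR adjusted p 0.00776), were lower. These 6 kept their calls under each of the 15 alternatives tried for this comparison.

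Smaller differences followed the roles unevenly. Of the CDK inhibitors 4 were higher with blebbistatin and 0 lower: beside Cdkn1c they were Cdkn1b (0.20, adjusted p 0.00209), Cdkn2b (0.18, adjusted p 0.011) and Cdkn1a (0.12, adjusted p 0.00626). E2f1 (0.31, adjusted p 0.000157), Mcm7 (0.35, adjusted p 0.00024), Mcm2 (0.31, adjusted p 0.00229) and Cdk4 (0.28, adjusted p 2.08e-06) were also higher. Among the D-type cyclins Ccnd1 (-0.30, adjusted p 7.55e-06) and Ccnd3 (-0.30, adjusted p 0.000196) were lower with blebbistatin and Ccnd2 (0.11, adjusted p 0.0123) was higher. Cdk6 (-0.23, adjusted p 0.0181), Foxm1 (-0.19, adjusted p 0.00338), Ccna2 (-0.31, adjusted p 0.00937), Top2a (-0.21, adjusted p 0.0184), Kif11 (-0.34, adjusted p 0.0107), Bub1 (-0.40, adjusted p 0.00505), a spindle checkpoint kinase, and Mcm4 (-0.15, adjusted p 0.0462) were lower. The difference of Ccnd2 was 0.086 without blebbistatin replicate 1, 0.087 without replicate 2 and 0.087 without Y27632 replicate 1, each not called. That of Cdk6 lost its call without blebbistatin replicate 1 (-0.22) or 3 (-0.17) and without Y27632 replicate 1 (-0.21) or 3 (-0.21), and that of Cdkn2b without blebbistatin replicate 2 (0.11). Top2a lost its call without blebbistatin replicate 1 (-0.18) or 2 (-0.15) or Y27632 replicate 2 (-0.20) and reached -0.31 without blebbistatin replicate 3. Mcm4 lost its call without DMSO replicate 1 (-0.15) or 2 (-0.15), which enter through the shared spread, the scaling and the set of genes tested. It also lost the call without blebbistatin replicate 1 (-0.16) or 2 (-0.10) and without Y27632 replicate 1 (-0.12) or 3 (-0.15). With DESeq2 and in a fit of the 6 inhibitor libraries it was likewise not called. The direct differences of Rrm1, -0.068 (SE 0.0612), and Cdkn2c, -0.12 (SE 0.0526), were not called by edgeR (adjusted p 0.367 and 0.0749).

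**Figure D4:**
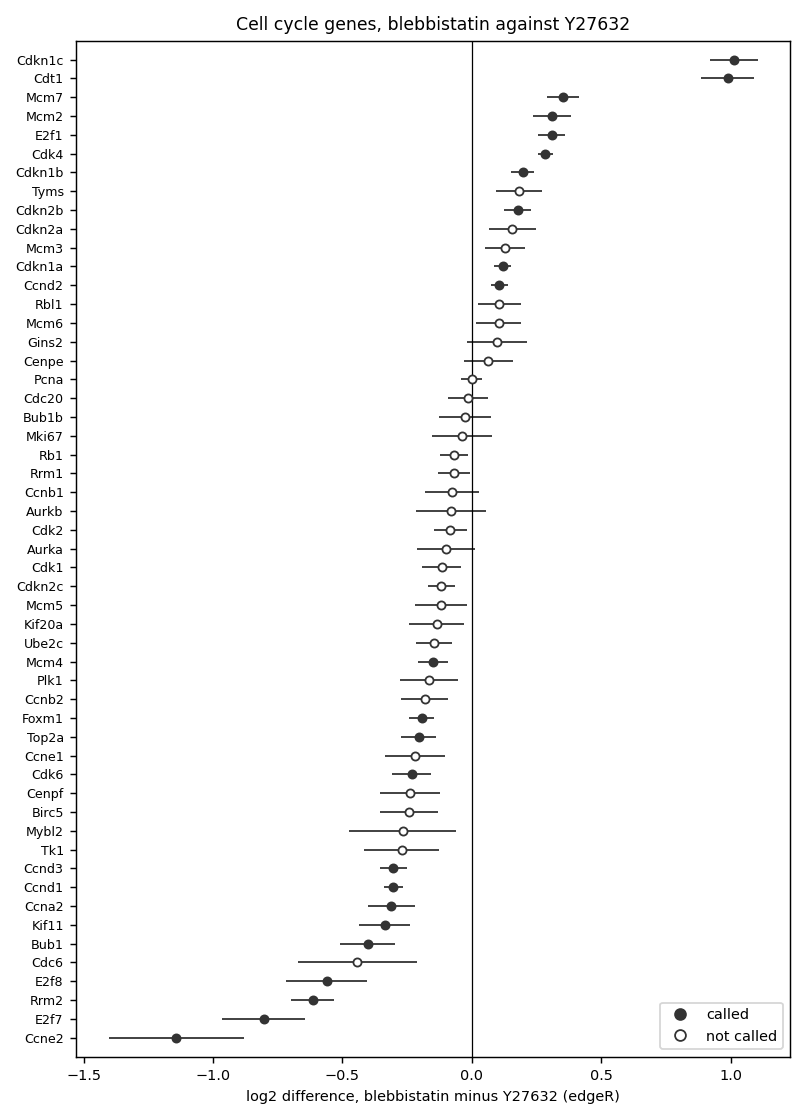
Log2 difference between blebbistatin and Y27632 (horizontal axis, blebbistatin minus Y27632, edgeR) of the 53 genes, in order of size. Bars are standard errors from 3 libraries a group in a fit of 9, and filled points were called. Cdkn1c (1.01) and Cdt1 (0.99) stand apart at the top, and Ccne2 (-1.14) and E2f7 (-0.80) at the bottom.

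Wider lists of the same pathway place the 53 genes. Of 47 other replication genes, 9 rose and 8 fell with blebbistatin and 9 rose and 3 fell with Y27632, with medians of 0.051 and 0.077. For this list and those that follow, 26.1% of all genes tested were called higher and 26.9% lower with blebbistatin, and 18.1% and 17.8% with Y27632, at medians of 0.00 and 0.004. Chaf1b, a subunit of the chromatin assembly factor that follows the replication fork, rose with both, at 1.64 (SE 0.12, limma adjusted p 2.14e-07) with blebbistatin and 0.67 (SE 0.132, limma adjusted p 0.00161) with Y27632. With blebbistatin Timeless (0.58) and Pola2 (0.42) also rose and Pold2 (-0.58), Orc4 (-0.42) and Dut (-0.42) fell. With Y27632 the origin-firing kinase gene Cdc7 (0.69) and Rfc4 (0.42) rose, and Dut (-0.29), Pold2 (-0.27) and Orc4 (-0.18) fell. The Y27632 call of Orc4 was lost without DMSO replicate 2 (-0.16) or Y27632 replicate 3 (-0.14). Of 48 other G2 and M genes, 2 rose and 13 fell with blebbistatin, at a median of -0.15, and 1 rose and 1 fell with Y27632, at 0.05. The cytokinesis genes Ect2 (-0.65, SE 0.121, limma adjusted p 0.000628) and Anln (-0.50) led the falls with blebbistatin, followed by Hmmr (-0.41), while Cdc25b, a phosphatase that activates Cdk1, rose (0.65, SE 0.0594, limma adjusted p 1.55e-06) and so did Ncapd2 (0.25). The Y27632 calls of Kif22 (0.21) and Smc4 (-0.16) were lost without Y27632 replicate 3 (0.16 and -0.13), and that of Kif22 also when any other library but DMSO replicate 1 was left out (0.18 to 0.25). The call of Kif22 was also lost with a pseudocount of 5, no filter, edgeR, DESeq2 and all 9 libraries in 1 fit.

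Of 13 other pocket protein, E2F and MuvB genes, 1 rose and 5 fell with blebbistatin, and 0 rose and 2 fell with Y27632. Rbl2, p130, the pocket protein of resting cells, rose with blebbistatin by 0.37 (SE 0.0421, limma adjusted p 1e-05), and E2f6 (-0.66), Cdkn2d (-0.39) and E2f4 (-0.32) fell. With Y27632 Cdkn2d (-0.44) and Tfdp2 (-0.27) fell. Of 15 p53 and growth arrest genes, 10 rose and 2 fell with blebbistatin, at a median of 0.22, and 6 rose and 5 fell with Y27632, at a median of 0.037. The stress gene Gadd45a rose by 1.89 (SE 0.0755, limma adjusted p 8.98e-10) with blebbistatin and 0.23 (SE 0.0778, limma adjusted p 0.0356) with Y27632. The Y27632 call was lost without DMSO replicate 1 (0.14) and without Y27632 replicate 1 (0.24) or 3 (0.19). Gadd45b, its relative, fell with both (-1.44 and -1.31), and so did Sesn2 (-0.44 and -0.51). Trp53inp1 (0.52) and Sesn1 (0.42) rose with blebbistatin, while with Y27632 the antiproliferative gene Btg2 (1.27, SE 0.0651, limma adjusted p 1.4e-08) and Zmat3 (0.38) rose and Sesn1 fell (-0.22).

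Myc, a transcription factor that raises D-type cyclin and nucleotide synthesis genes, was called in opposite directions against DMSO. It changed by -0.56 (SE 0.051, limma adjusted p 1.43e-06) with blebbistatin and 0.68 (SE 0.0587, limma adjusted p 1.71e-06) with Y27632, and the direct difference was -1.24 (SE 0.0592, edgeR adjusted p 7.35e-10). Skp2, the ubiquitin ligase subunit that targets p27, rose with Y27632 by 0.30 (SE 0.0856, limma adjusted p 0.0153), a call lost without Y27632 replicate 2 (0.25) and with DESeq2. Of the 5 genes listed as upstream regulators of the cycle (Myc, Mycn, Mycl, Skp2 and Cdc25a), 3 were abundant enough to be tested. Cdc25a is also among the other G2 and M genes.

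The authors' lists of changed chromatin sites give folds per site and no values per library. In the blebbistatin ATAC list of 970 sites 1 lay nearest to a member gene, and in the Y27632 ATAC list of 207 sites likewise 1. Of all genes tested for RNA, 3.49% and 0.833% had a listed site. It was the same place in both, chr4:89464694-89464987 on the submitters' build mm10, annotated to Cdkn2b and inside intron 7 of a noncoding transcript, 153809 bases before the Cdkn2b start. The authors' log2 fold there was -1.82 (FDR 0.00588) with blebbistatin and -1.47 (FDR 0.0114) with Y27632. Decreases made up 98.2% and 85.0% of these lists. The blebbistatin list marks a TEAD motif match at this site on the plus strand. TEAD proteins are the DNA-binding partners of Yap and Taz. The matched letters are shown because this place is in both ATAC lists and TEAD proteins bear on the study's question of Yap and Taz:

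Cdkn2b site: AGGAATTTCT
Capitals mark the whole match. Of the 970 sites 62.2% carry such a match. The RNA of Cdkn2b fell with Y27632 (-0.18) and was not called with blebbistatin (-0.017). None of the ATAC sites was annotated to a promoter of a member gene.

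In the doxycycline experiment the list of doxycycline against neither drug held 19 member sites over 12 genes, all 19 higher. Of its 7613 sites 95.8% were higher, and 24.3% of tested genes had a site. The list is named as against neither drug, but its reference column is headed as blebbistatin without doxycycline. Which group its folds refer to is therefore uncertain. The list of doxycycline with blebbistatin against doxycycline alone held 14 member sites over 9 genes, all 14 lower, where 99.8% of its 6346 sites were lower and 17.5% of genes had a site. These directions are those of the lists as a whole. The list of blebbistatin alone, with 1231 sites, held 0 member sites, and 4.30% of genes had one there. Of the 19 sites 6 were promoter sites, at Ccnd2 (log2 fold 1.05), Cdk1 (1.12), Cdkn1b (1.06), E2f7 (1.09), Kif20a (1.13) and Rb1 (1.05), and 18.7% of all sites of that list were. Of the 14 sites 0 were, against 1.78%. The Cdk1 site, chr10:69352798-69353188, covered all 250 bases of the promoter window printed above, and the E2f7 site, chr10:110745255-110745679, covered 184 of 250, leaving out the E2F match. Ccnd1 had 2 sites before its start, at 1657 bases (1.02) and 3578 bases (1.03).

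In 8 places the doxycycline list and the list of blebbistatin with doxycycline met within a base or more. The E2f7 place, chr10:110744168-110744425, lies 1142 bases before the start, and its authors' log2 fold was 1.16 (FDR 2.41e-05) with doxycycline and -1.27 (FDR 4.98e-06) when blebbistatin was added. The Cdkn2b locus had 3 such places, among them the ATAC place above, at 1.20 and -1.15. Cdk6, Cenpe, Rb1 and Rrm1 had 1 each. Both lists use the libraries of doxycycline alone, so opposite signs at a place that both list are not independent. The reference group of the doxycycline list is also uncertain, as given above.

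**Figure D5:**
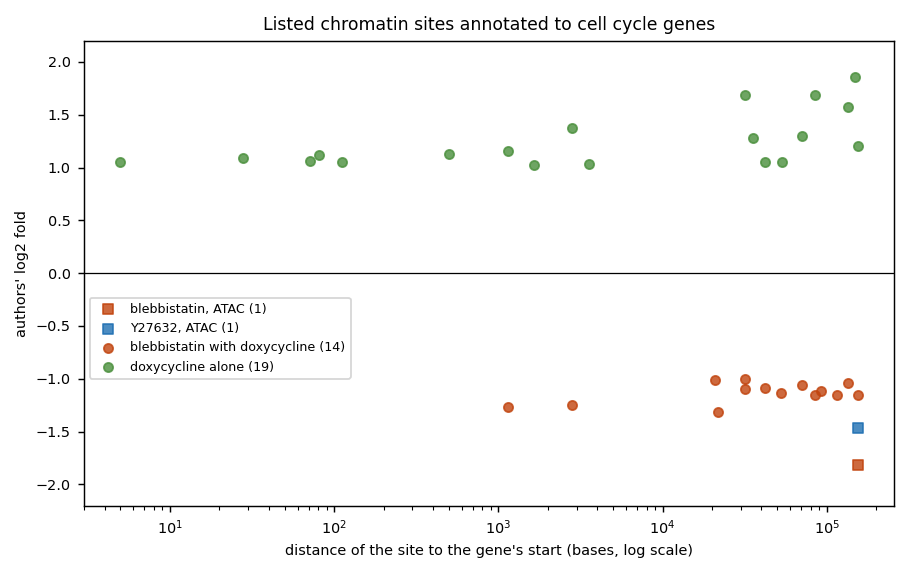
Authors' log2 fold (vertical axis) of the listed sites annotated to the 53 genes against the distance of the site to the gene's start (horizontal axis, bases, log scale), 1 point per site. Squares are ATAC lists and circles the doxycycline lists, with the number of sites in brackets. The 19 sites of doxycycline alone lie above 0, 6 of them at 503 bases or less, and the 14 sites of blebbistatin with doxycycline lie below 0 at 1142 bases or more.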

How the data were processed

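RNA was compared in 9 libraries and chromatin sites in the lists from 21 genomic libraries, 3 per group. The authors deposited each RNA table as a signal per gene, counts divided by 1 size factor per library, which was worked out from the values: 100% of values were whole multiples of 1 read within a tolerance of 0.1, and the DMSO reads of both tables differed in 0 of 35972 shared genes. The submitters' processing notes name HISAT2, Picard, featureCounts, DESeq2, Bowtie2, SAMtools, MACS2, DiffBind, HOMER and mm10, with no roles or settings; the use of strand is not given in the sources used here. Members sharing bases with another gene of the RefSeq table (24 of 53, 15 with a protein-coding one) could share its reads. The site lists hold log2 group means, log2 folds, p-value and FDR columns and distances to gene starts, all the authors' deposited values, per the file headers. The reference column of the doxycycline list bears another group's heading and was not used, so the reference group of that list's folds is uncertain. The log2 fold changes and adjusted p-values of the RNA tables are also the authors' deposited values.

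The 53 genes, their roles and the wider lists were chosen with earlier results of these data known. Genes whose mean reached 10 normalised counts were tested within each table by limma-trend (limma 3.58.1, R 4.3.3) on log2(normalised count + 1), which understates changes of low genes. The inhibitors were compared with each other by the edgeR 4.0.16 quasi-likelihood test (TMM) on the recovered reads of all 9 libraries. Adjusted p-values are Benjamini-Hochberg values over all genes tested, called at 0.05. In simulated data of the 3 comparisons, these fits called 95, 92 and 96 of 100 genes changed 2-fold and 85, 81 and 86 of 100 changed 1.5-fold. The simulation gave every gene the same assumed spread beyond counting error. Its rates need not hold for genes that vary more between replicates. Members called with an absolute log2 change of at least 0.5, and members a role turns on, are given in every library, and other members by estimates or counts. The wider lists name up to 3 called genes per direction, list and inhibitor by size of change, and Skp2 and Myc among them. Sites were linked to genes by the authors' annotation and counted as shared at 1 base. Promoters were read from RefSeq for 42 of 53 genes, and the window of E2f1 contains its coding sequence. The alternatives tried were pseudocounts of 0.5 and 5, other filters, TMM scaling, edgeR, DESeq2 1.42.0, all 9 libraries in 1 fit, a replicate block, and leaving out each library.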

Additional observations from a re-analysis of the deposited data

How the results depend on the processing

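With blebbistatin, 19 of the 30 called genes were called under all 15 alternatives, 10 lost the call when 1 library was left out, and 6 under another setting. With Y27632 9 of 15 and between the inhibitors 18 of 23 were called under all 15. Of the called genes 0 reversed. Leaving out 1 library gave 23 to 30 called genes with blebbistatin (7 to 9 higher, 14 to 22 lower), 10 to 17 with Y27632 (8 to 14 lower) and 19 to 26 between the inhibitors. The number called higher with Y27632, 4, was 2 with DESeq2 and 2 to 7 when 1 library was left out. DESeq2 called 24, 11 and 22 of the 53 genes in the 3 comparisons. A replicate block on the label numbers called 28, 12 and 23 of the 53 and 7604, 4633 and 7699 of all genes. Under it Ccne1, Mcm2 and Ube2c with blebbistatin and Cdkn1a, Tyms and Cdc20 with Y27632 were not called, and Cdc6 with blebbistatin was. The numbers share no stated batch, and same-numbered libraries did not deviate together: correlations of their deviations were -0.15, 0.05 and 0.04 for DMSO and blebbistatin, -0.21, -0.02 and -0.05 for DMSO and Y27632, and 0.08, -0.16 and 0.09 for the inhibitors. Genes not called and near 0 changed sign. Pcna with blebbistatin was 0.000472 with TMM, 0.000573 with edgeR and 0.000986 with DESeq2. With 1 library left out, the log2 change with blebbistatin was -0.076 to 0.021 for Cdkn2b and -0.015 to 0.011 for Pcna. That with Y27632 was -0.083 to 0.0030 for Top2a, -0.021 to 0.046 for Ccnd3, -0.0015 to 0.033 for Pcna and -0.098 to 0.13 for E2f8. The cause was not tested.

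With 3 libraries per group, changes near or below 1.5-fold can go uncalled. Cdc6 was not called with blebbistatin (-0.57), and its DMSO libraries had a coefficient of variation of 27.7%. Why it was not called was not tested. There are no values per library for sites, so site folds carry no error of their own here. The 20 mitotic, S and M phase and marker genes varied more between replicates than counting error gives. Of their blebbistatin calls, those of Ccna2, Foxm1 and Top2a held without DMSO replicate 1 and without blebbistatin replicate 1. The others were lost in each case, as given beside them, and why was not tested. Labels that do not name the source of each replicate, the dose difference and the unknown treatment time limit each comparison of the inhibitors.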
